A study of Mus musculus with 14 samples.

Results

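The m6A writers and erasers described here are 10 genes chosen by name: the writer genes Mettl3, Mettl14, Mettl16, Wtap, Virma, Zc3h13, Rbm15 and Cbll1, and the eraser genes Fto and Alkbh5. They are 10 of the 17656 genes listed for each mouse liver, and all 10 passed the filter on low values in each of the 5 comparisons made. The study asked how Ythdf1, a reader of m6A, acts in hepatitis caused by concanavalin A (ConA), a plant lectin that activates T cells and injures the liver. RNA of whole liver tissue was sequenced from 14 mice, 1 library a mouse, as 3 WT and 3 Ythdf1 knockout mice given saline and 4 WT and 4 Ythdf1 knockout mice given ConA at 8 mg/kg. Injection was intravenous, and livers of all 4 groups were taken 8 h later. WT and knockout mice shared the C57BL/6 background, and the knockout mice had been made with CRISPR/Cas9. The labels give no age or sex. A figure legend of the study calls the ConA-treated mice of this sequencing male. The study's methods give its mice a range of ages in weeks, not an age for these livers. Mice labelled Ythdf1 knockout are called KO, and groups are named by genotype and treatment (KO ConA, for example).

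N6-methyladenosine (m6A) is a methyl mark on adenosines of messenger RNA. The writer complex is built on METTL3, which transfers the methyl group from S-adenosylmethionine, and METTL14, which holds the RNA; WTAP, VIRMA, ZC3H13, the RNA-binding adaptor RBM15 and the ubiquitin ligase CBLL1 (also called HAKAI) anchor and guide this pair, while METTL16 is a separate methyltransferase that acts on the U6 small nuclear RNA and on the Mat2a transcript. FTO and ALKBH5 remove the mark in a reaction that uses iron, oxygen and 2-oxoglutarate, and reader proteins such as YTHDF1 bind it.

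Positions are those of the mouse genome (build GRCm38.p6, RefSeq gene table). Of the Mettl genes, Mettl3 lies on chromosome 14 (52294841 to 52308741), Mettl14 on chromosome 3 (123368295 to 123385990) and Mettl16 on chromosome 11 (74770815 to 74826855). Among the scaffold and adaptor genes, Wtap is on chromosome 17 (12966799 to 12992543), Virma on chromosome 4 (11485958 to 11551143) and Zc3h13 on chromosome 14 (75284306 to 75344433). Rbm15 is on chromosome 3 (107305511 to 107334460) and Cbll1 on chromosome 12 (31484829 to 31500676). The erasers Fto and Alkbh5 are on chromosome 8 (91313367 to 91668433) and chromosome 11 (60537683 to 60558512). Of the exonic bases of Mettl3, 18.4% are also exonic for Tox4 on the opposite strand, and for Cbll1 17.6% are shared with an antisense gene; the strand setting of the counting is not given in the sources used here, so reads of these stretches may belong to either gene. Fto shares 3.44% in the same way, and the other 7 members share none. Of all 50-base stretches in the longest coding transcript, 91.0% occurred in no other gene for Wtap and between 99.7% and 100% for the other 9 members.

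Promoter sequences from RefSeq (GRCm38.p6) matched 8 of the 10 members, without Mettl14 and Virma. Printed here, as the 250 bases before a start site in the direction of transcription, are those of the 3 members with the largest ConA differences in KO livers and of Fto, the member with the smallest. Capitals mark matches, on either strand, to CCAAT (the CCAAT box), GGGCGG (a GC box), ACGTG (a hypoxia response core, also part of the E-box CACGTG) and TTCNNNGAA (a STAT motif). The positions are chr11:60537433-60537682 on the plus strand for Alkbh5, chr14:75284123-75284372 on the plus strand for Zc3h13 (1 of 2 listed start sites), chr3:107333290-107333539 on the minus strand for Rbm15, and chr8:91313275-91313524 on the plus strand for Fto.
Alkbh5: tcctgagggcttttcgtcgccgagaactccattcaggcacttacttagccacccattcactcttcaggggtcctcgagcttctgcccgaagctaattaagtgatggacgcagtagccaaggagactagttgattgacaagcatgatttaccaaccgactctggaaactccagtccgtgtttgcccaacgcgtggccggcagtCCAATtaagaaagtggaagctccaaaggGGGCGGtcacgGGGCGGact
Zc3h13: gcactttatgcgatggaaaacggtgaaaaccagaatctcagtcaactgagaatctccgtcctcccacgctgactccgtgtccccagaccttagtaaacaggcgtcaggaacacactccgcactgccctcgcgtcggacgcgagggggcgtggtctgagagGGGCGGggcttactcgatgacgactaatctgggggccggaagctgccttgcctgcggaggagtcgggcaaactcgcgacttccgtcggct
Rbm15: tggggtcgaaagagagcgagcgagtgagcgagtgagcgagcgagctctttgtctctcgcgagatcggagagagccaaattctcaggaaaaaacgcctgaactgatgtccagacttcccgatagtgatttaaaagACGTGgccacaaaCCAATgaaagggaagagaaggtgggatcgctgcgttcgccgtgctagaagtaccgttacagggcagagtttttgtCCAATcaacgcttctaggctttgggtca
Fto: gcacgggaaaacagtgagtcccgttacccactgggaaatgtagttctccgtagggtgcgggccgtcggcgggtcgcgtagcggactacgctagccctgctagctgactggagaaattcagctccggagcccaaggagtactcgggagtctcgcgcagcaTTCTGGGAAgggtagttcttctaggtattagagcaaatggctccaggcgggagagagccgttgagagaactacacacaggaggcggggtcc

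Alkbh5 held 2 GC boxes and 1 CCAAT box, Zc3h13 held 1 GC box, and Rbm15 held 2 CCAAT boxes and 1 ACGTG match. Fto held neither box and 1 match to TTCNNNGAA. The bases after the Alkbh5 start site were not found in a listed transcript of that gene, unlike those of Zc3h13, Rbm15 and Fto. The Alkbh5 window is therefore less certain. Over 32851 promoters of the same length, 32.7% held GGGCGG, 33.8% CCAAT, 16.6% ACGTG and 7.02% TTCNNNGAA. The AP-1 motif TGANTCA (6.75% of promoters), the E-box CACGTG (6.02%) and an NF-kB-like motif (45.8%) were searched as well and matched none of these 4 windows.

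The deposited values are TPM, a gene's share of all transcripts corrected for its length, so levels of different genes can be compared within a library. Read numbers per library are unknown, so the spread between mice is the measure of error. 3 features of the libraries bear on what follows. WT saline replicates 2 and 3 differed by a robust SD of 0.0688 in log2 ratio over genes at 100 TPM or more (the other 17 replicate pairs spanned 0.147 to 0.549) and were averaged and counted as 1 mouse in the tests. WT ConA replicate 3 and KO ConA replicate 3 were the lowest libraries: their median gene lay 0.34 and 0.24 below the average library in log2 TPM. The other 12 libraries lay between -0.05 and 0.26, with KO ConA replicates 1 and 2 the highest at 0.26 and 0.17. Results that rest on the 2 lowest libraries are given with and without them, and after rescaling each library to the same median ratio. In the saline groups Ythdf1 itself ran from 12.03 to 13.9 TPM (WT) and 18.4 to 20.8 TPM (KO), and in the ConA groups from 18.7 to 25.6 TPM (WT) and 15.5 to 26.2 TPM (KO). The KO saline range of Ythdf1 thus lay above the WT saline range (log2 difference 0.55, SE 0.11, adjusted p = 0.0795 by limma). Which part of the gene the knockout removes is not stated in the text of the sources used here. These TPM therefore do not check the genotype.

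In WT saline livers, Wtap was the highest member at 17.8 TPM and Alkbh5 followed at 16.9 TPM, and the ranges of these neighbours overlapped. Fto (9.60 TPM) and Mettl3 (6.87 TPM) came next, each clear of its neighbours in all 3 libraries. Mettl16 (4.96 TPM) and Zc3h13 (4.39 TPM) overlapped one another. Cbll1 (2.68 TPM), Virma (2.65 TPM), Rbm15 (2.55 TPM) and Mettl14 (2.35 TPM) formed a bottom group whose ranges overlapped from each to the next. Mettl14 was thus far below its catalytic partner Mettl3, with a TPM ratio between 0.305 and 0.407 in the 3 livers. The order in KO saline was the same apart from exchanges between neighbours that overlapped. After ConA, Alkbh5 stood first in both genotypes, at 43.4 ± 7.79 TPM in WT and 52.2 ± 11.2 TPM in KO (SD, n = 4 each), with no overlap with Wtap, the next gene. Zc3h13 followed Wtap in both, at 22.5 ± 9.18 and 19.5 ± 7.97 TPM (SD, n = 4 each), and overlapped it. Replicate 3 was the lowest ConA liver of its genotype for each of the 10 members.

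**Figure D1:**
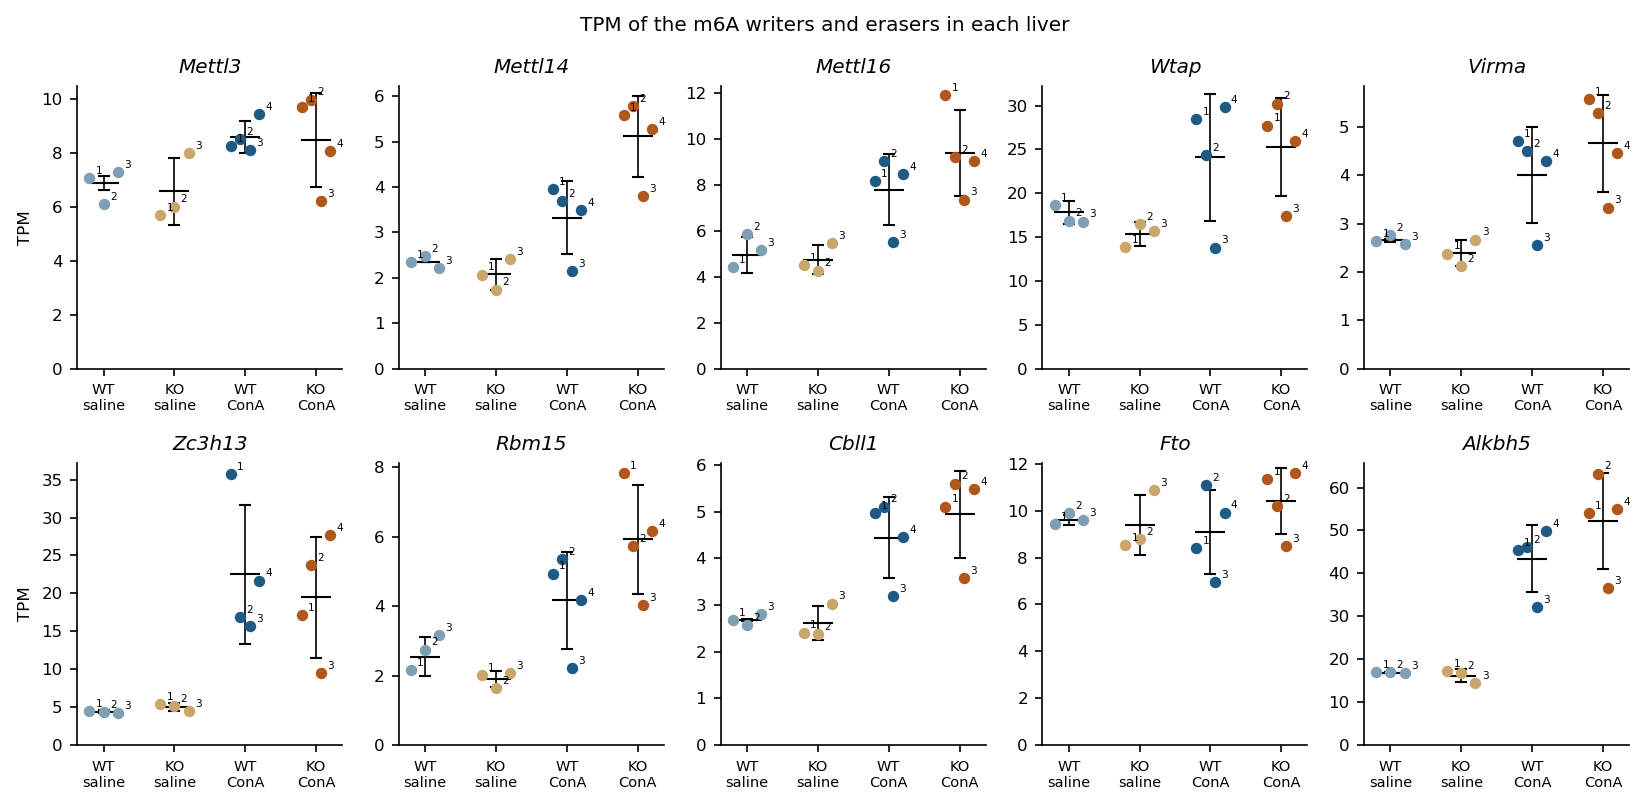
TPM of the 10 members in each liver (points, numbered by replicate; 3 saline and 4 ConA mice per genotype), with the mean and SD as a bar and whiskers (WT saline replicates 2 and 3 counted as 1 mouse). Each panel has its own axis from 0; Alkbh5 and Zc3h13 sit clear of saline in all ConA livers, Fto overlaps in all groups, and replicate 3 is the lowest ConA liver of its genotype for each member.

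The first comparison asked how the members responded to ConA in WT liver. Alkbh5 and Zc3h13 rose, and the other 8 members did not pass the test: 2 of 10 were called higher and 0 lower, where 17.1% of all 10768 genes tested were called higher and 25.4% lower (42.5% in all). Zc3h13 was 5.12 times and Alkbh5 2.57 times its saline mean in TPM. The median log2 fold change of the members was 0.47, against -0.08 over all genes tested. In 4 members the ConA livers lay wholly above the saline livers (Mettl3, Zc3h13, Cbll1 and Alkbh5), as they did in 23.3% of all genes tested; in 0 members they lay wholly below, against 34.7% of all genes.

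Among the Mettl genes, Mettl3 read 7.06, 6.10 and 7.27 TPM in WT saline and 8.24, 8.51, 8.09 and 9.43 TPM in WT ConA. The 2 groups did not overlap, but the log2 fold change of 0.28 (SE 0.17) had an adjusted p of 0.225. Mettl14, its partner, read 2.35, 2.48 and 2.22 TPM in saline and 3.96, 3.69, 2.15 and 3.49 TPM after ConA. Replicate 3 of the ConA group was below the saline livers while the other 3 were above them, and the log2 fold change was 0.35 (SE 0.22, adjusted p = 0.245). Mettl16 read 4.41, 5.87 and 5.15 TPM in saline and 8.19, 9.04, 5.52 and 8.47 TPM after ConA, again with replicate 3 inside the saline range. Its log2 fold change was 0.55 (SE 0.23, adjusted p = 0.0834).

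Of the scaffold genes, Zc3h13, which holds the writer complex in the nucleus, read 4.51, 4.33 and 4.22 TPM in WT saline and 35.7, 16.8, 15.7 and 21.7 TPM after ConA. Each of the 4 ConA livers was above all saline livers, with replicate 1 well above the other 3, and the log2 fold change of 2.05 (SE 0.31, adjusted p = 0.00112) lay at percentile 97 of all genes tested. Wtap, the subunit that brings the METTL3 and METTL14 pair to nuclear speckles, read 18.7, 16.9 and 16.8 TPM in saline and 28.4, 24.4, 13.8 and 29.8 TPM after ConA. Replicate 3 was below the saline livers and the other 3 were above them, which left a log2 fold change of 0.37 (SE 0.30, adjusted p = 0.353). Virma, the largest subunit of the complex, read 2.63, 2.76 and 2.58 TPM in saline and 4.70, 4.50, 2.55 and 4.29 TPM after ConA, with the same split and a log2 fold change of 0.43 (SE 0.23, adjusted p = 0.168).

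Of the adaptors, Rbm15 read 2.15, 2.75 and 3.17 TPM in WT saline and 4.94, 5.35, 2.22 and 4.18 TPM after ConA (log2 fold change 0.50, SE 0.29, adjusted p = 0.197). The ligase gene Cbll1 read 2.67, 2.57 and 2.81 TPM in saline and 4.97, 5.11, 3.20 and 4.46 TPM after ConA (log2 fold change 0.55, SE 0.21, adjusted p = 0.0635). Cbll1 was above saline in 4 of 4 ConA livers and Rbm15 in 3 of 4. The 2 erasers parted. Alkbh5 read 16.95, 17.03 and 16.70 TPM in saline and 45.5, 46.2, 32.1 and 49.95 TPM after ConA, and its log2 fold change was 1.29 (SE 0.21, adjusted p = 0.00147). Fto read 9.44, 9.91 and 9.60 TPM in saline and 8.39, 11.1, 6.94 and 9.92 TPM after ConA, and its log2 fold change was -0.09 with a 95% interval from -0.58 to 0.40 (adjusted p = 0.763).

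The number of members called depended on WT ConA replicate 3, on the scaling and on how WT saline replicates 2 and 3 were counted. Without WT ConA replicate 3, 8 of 10 were called, all higher and all but Mettl3 and Fto, where 27.4% of all genes tested were called higher. After rescaling of the libraries 5 were called (Mettl16, Virma, Zc3h13, Cbll1 and Alkbh5; 21.9% of all genes tested were called higher), and with both changes 8 (27.7%). With all 4 groups in 1 fit, and likewise with WT saline replicates 2 and 3 kept separate, Mettl16 and Cbll1 were added (4 of 10, where 20.1% and 22% of all genes were called higher), and rescaling with the pair separate gave 9 (27.5%).

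**Figure D2:**
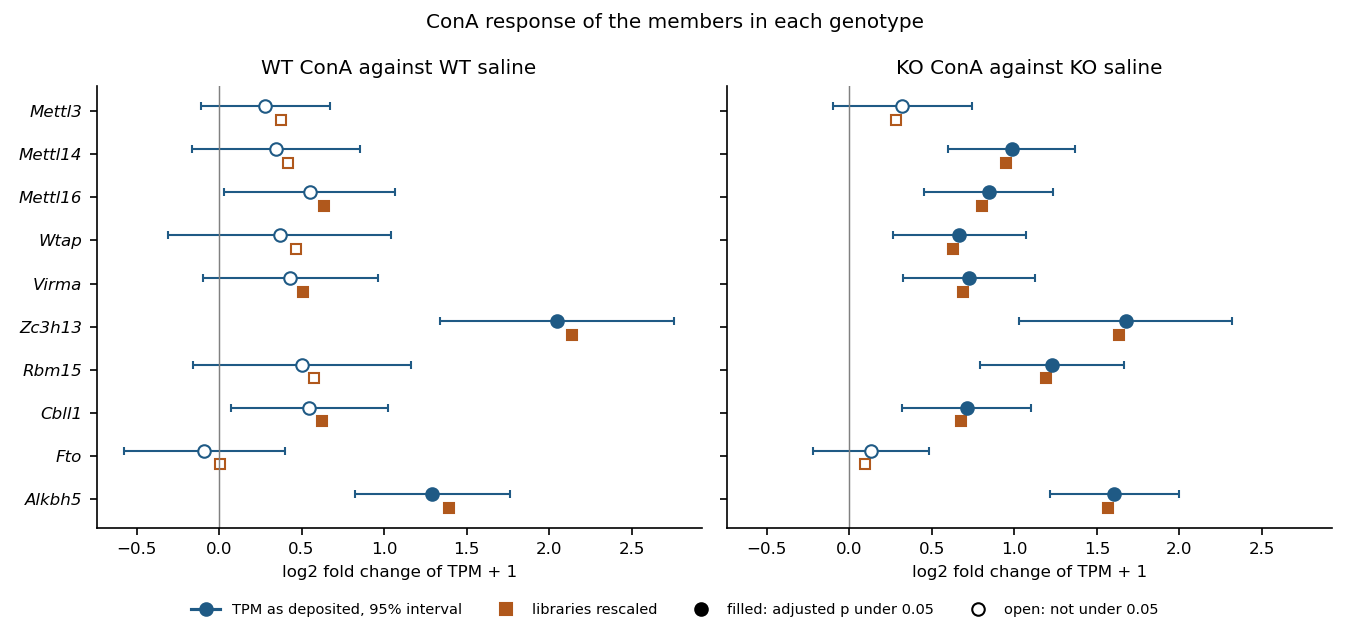
Log2 fold change of TPM + 1 after ConA (x axis) for the 10 members in WT (left, 4 ConA against 3 saline mice, of which replicates 2 and 3 counted as 1) and KO liver (right, 4 against 3); circles with 95% intervals are TPM as deposited and squares are rescaled libraries, filled where the adjusted p is under 0.05. In WT liver Zc3h13 and Alkbh5 are filled as deposited and 5 members after rescaling, and in KO liver 8 are filled on both scales.

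The same question was asked of Ythdf1 knockout liver, with saline and ConA livers that the WT comparison did not use. There 8 of 10 members rose and 0 fell, where 33.9% of 10988 genes tested were called higher and 30.7% lower (64.6% in all). Alkbh5, Zc3h13 and Rbm15 led with 3.22, 3.89 and 3.11 times their saline mean in TPM, and Mettl3 and Fto did not pass the test. The ConA livers of the 8 genes lay wholly above the saline livers, as in 32.8% of all genes tested, and no member lay wholly below (31.5% of all genes). The median log2 fold change of the members was 0.78, against 0.07 over all genes tested.

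Mettl14 read 2.07, 1.74 and 2.42 TPM in KO saline and 5.58, 5.79, 3.81 and 5.28 TPM in KO ConA, more than double in mean level (2.46 times). Its log2 fold change was 0.98 (SE 0.17, adjusted p = 0.000511). Its partner Mettl3 read 5.68, 6.0 and 7.99 TPM in saline and 9.70, 9.96, 6.19 and 8.06 TPM after ConA; replicate 3 fell inside the saline range, and the log2 fold change was 0.32 (SE 0.19, adjusted p = 0.161). Mettl16 read 4.51, 4.27 and 5.46 TPM in saline and 11.9, 9.23, 7.37 and 9.06 TPM after ConA, and its log2 fold change was 0.84 (SE 0.18, adjusted p = 0.00158). Unlike Mettl3, it was above the saline range in 4 of 4 ConA livers.

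Zc3h13 read 5.42, 5.14 and 4.48 TPM in KO saline and 17.2, 23.7, 9.46 and 27.6 TPM in KO ConA. The lowest ConA liver was still above all saline livers; the log2 fold change was 1.68 (SE 0.29, adjusted p = 0.000462). Wtap read 13.8, 16.5 and 15.7 TPM in saline and 27.7, 30.2, 17.4 and 25.95 TPM after ConA (log2 fold change 0.67, SE 0.18, adjusted p = 0.00803). Virma read 2.38, 2.12 and 2.67 TPM in saline and 5.57, 5.29, 3.33 and 4.46 TPM after ConA (log2 fold change 0.72, SE 0.18, adjusted p = 0.00461). In both genes replicate 3 was the lowest ConA liver and still lay above saline.

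Rbm15 read 2.01, 1.64 and 2.08 TPM in KO saline and 7.83, 5.73, 4.02 and 6.16 TPM in KO ConA, a log2 fold change of 1.23 (SE 0.20, adjusted p = 0.000268). Cbll1 read 2.41, 2.38 and 3.03 TPM in saline and 5.11, 5.60, 3.58 and 5.48 TPM after ConA (log2 fold change 0.71, SE 0.18, adjusted p = 0.00456). The adaptors thus differed in size of change, Rbm15 by 3.11 times and Cbll1 by 1.90 times in mean TPM; that difference between genes was not tested. Alkbh5 read 17.3, 16.8 and 14.5 TPM in saline and 54.1, 63.3, 36.5 and 54.97 TPM after ConA, and its log2 fold change was 1.61 (SE 0.18, adjusted p = 1.7e-05). Fto read 8.54, 8.79 and 10.9 TPM in saline and 11.3, 10.2, 8.50 and 11.6 TPM after ConA, with overlapping groups and a log2 fold change of 0.13 (95% interval -0.22 to 0.48, adjusted p = 0.486).

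Rescaling left the same 8 genes called in KO liver (35.9% of all genes were then called higher). Without KO ConA replicate 3 Mettl3 was called as well, with a log2 fold change of 0.45 (adjusted p = 0.0238), which made 9 of 10. Calls over all genes, in either direction, also rose without that library, from 7099 to 7814.

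The next comparisons asked whether the genotypes differed. Between KO saline and WT saline, 0 of 10 members were called by limma and 0 had an unadjusted p under 0.05, where 0.526% of 10459 genes tested were called and 26.4% had an unadjusted p under 0.05. The number of genes called depended on the fit, with 55 here and 2009 with WT saline replicates 2 and 3 kept separate; the members' count was 0 in both. Log2 differences (KO minus WT) ran from -0.28 for Rbm15 to 0.15 for Zc3h13, and the 95% intervals of all 10 together reached from -0.64 to 0.43. In Wtap and Rbm15 all 3 KO livers were below all 3 WT livers (13.8 to 16.5 against 16.8 to 18.7 TPM, and 1.64 to 2.08 against 2.15 to 3.17 TPM), a separation also seen in 29.2% of all genes tested. No member was wholly above (13.0% of all genes). After rescaling neither Wtap nor Rbm15 was separated and Zc3h13 lay wholly above. The share of all genes so separated was not computed on the rescaled values, so this separation has no background to be read against.

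Between KO ConA and WT ConA, 0 of 10 members were called by limma, where 0.428% of 10519 genes tested were called (45 genes, against 452 with all 4 groups in 1 fit, where the members' count was 0 as well). No member's groups were free of overlap, against 6.37% of all genes with KO above and 4.11% with KO below. After rescaling Mettl14 lay above, and here too the share of all genes was not computed on the rescaled values. At an unadjusted p under 0.05 stood 1 member, Mettl14, and 16.7% of all genes, so the members did not exceed the background. Its log2 difference was 0.51 (SE 0.19, 95% interval 0.08 to 0.94, adjusted p = 0.221 by limma), and 3 of 4 KO livers were above all WT livers. Rbm15 was next at 0.44 (SE 0.25, 95% interval -0.10 to 0.99, adjusted p = 0.412), also with 3 of 4 KO livers above all WT livers. Alkbh5 differed by 0.25 (95% interval -0.18 to 0.68) and Zc3h13 by -0.22 (95% interval -0.94 to 0.50). With intervals of this width, the absence of a call does not show that the genotypes were alike.

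The ConA responses of the 2 genotypes were compared by the interaction term over all 4 groups. By limma 0 of 10 members were called and 1 had an unadjusted p under 0.05, where 0.247% of 11327 genes tested were called and 18.8% had an unadjusted p under 0.05. With WT saline replicates 2 and 3 kept separate 541 genes were called in place of 28, and again 0 members. The largest terms (response in KO minus response in WT, log2) were 0.72 for Rbm15 (SE 0.36, 95% interval -0.04 to 1.49, adjusted p = 0.289) and 0.64 for Mettl14 (SE 0.27, 95% interval 0.05 to 1.22, adjusted p = 0.235). Zc3h13 had the only negative term at -0.38 (SE 0.47, 95% interval -1.39 to 0.64). The larger number of members called in KO liver than in WT liver thus came without a called difference in response for any member. Rescaling moved the terms of all genes by a median of -0.13, left 0.0443% of genes called higher, and gave 0.62 for Rbm15 and 0.53 for Mettl14.

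**Figure D3:**
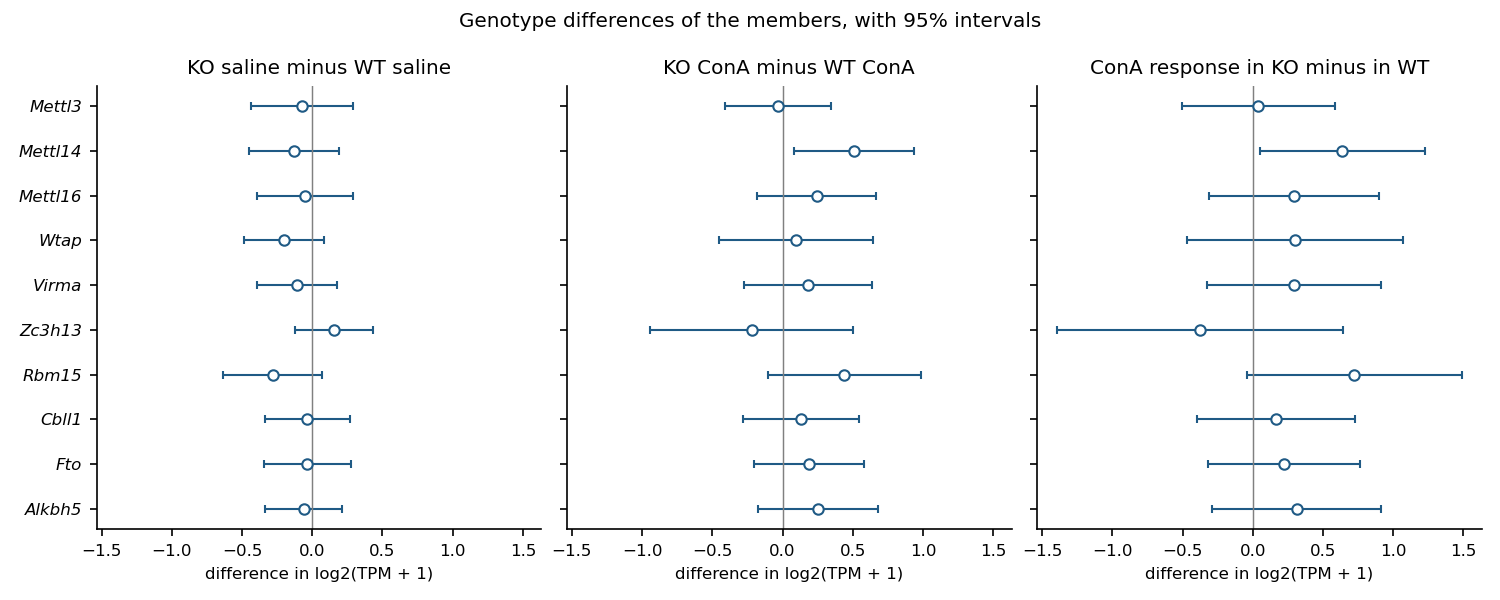
Differences in log2(TPM + 1) with 95% intervals for the 10 members: KO saline minus WT saline (left, 3 mice against 3, of which WT replicates 2 and 3 counted as 1), KO ConA minus WT ConA (middle, 4 against 4), and the ConA response in KO minus that in WT (right). Open circles mark an adjusted p not under 0.05, which holds for all 30 values; the interval of Mettl14 alone leaves out 0 in the middle and right panels.

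A ratio of 2 members within a library does not depend on how that library was scaled, and such ratios are given as descriptions, with no test, since they were chosen after the values were seen. Alkbh5 over Fto ran from 1.72 to 1.80 in WT saline and 1.33 to 2.02 in KO saline, whereas after ConA it spanned 4.17 to 5.42 (WT) and 4.30 to 6.20 (KO). The balance of the 2 eraser transcripts thus separated saline from ConA livers in both genotypes, replicates 3 included. Mettl14 over Mettl3 ran from 0.305 to 0.407 in WT saline, 0.290 to 0.364 in KO saline and 0.266 to 0.481 in WT ConA livers, while those of KO ConA read 0.575 to 0.655. The KO ConA livers lay above the other 10 in this ratio. Zc3h13 over Wtap ran from 0.241 to 0.392 in the 6 saline livers and from 0.545 to 1.25 in the 8 ConA livers, so these 2 scaffold transcripts did not keep their saline proportion.

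**Figure D4:**
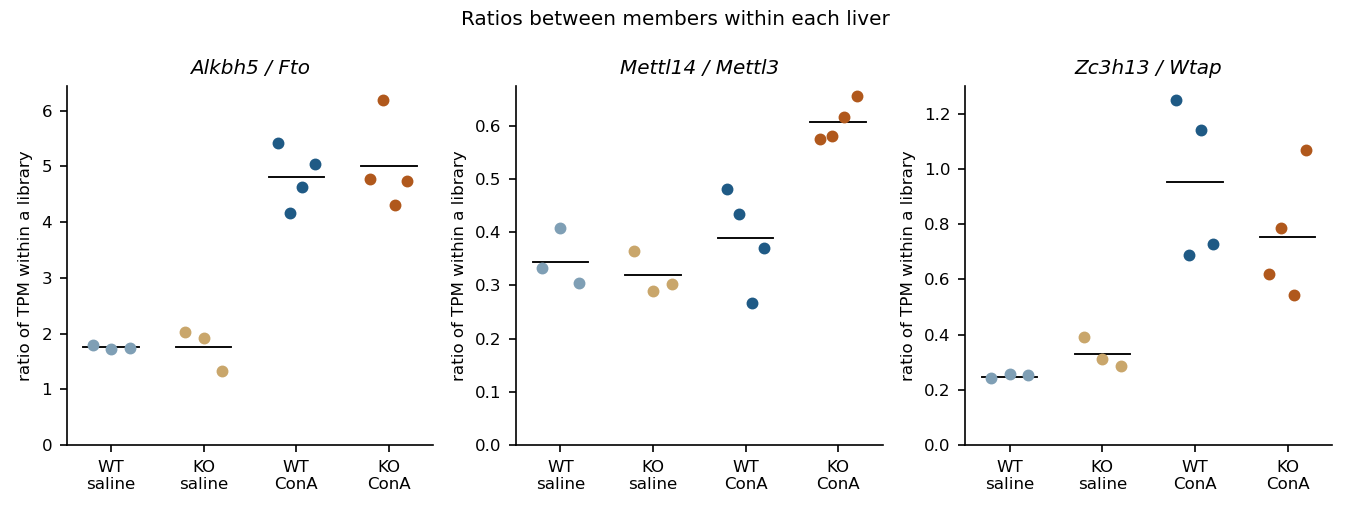
Ratio of TPM of 2 members within each liver (points; lines are group means with WT saline replicates 2 and 3 counted as 1 mouse) for Alkbh5 over Fto, Mettl14 over Mettl3 and Zc3h13 over Wtap, axes from 0. ConA livers lie above saline livers in Alkbh5 over Fto and Zc3h13 over Wtap, and in Mettl14 over Mettl3 the 4 KO ConA livers (0.575 to 0.655) lie above the other 10.

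The members were then compared by their pattern over the 14 livers, measured as the root mean square difference of log2(TPM + 1) after each gene's own mean was subtracted. The nearest pair of members was Virma and Cbll1 (0.097), and Mettl16 lay at 0.107 from Virma. Zc3h13 was the most distant, with Alkbh5 as its nearest member at 0.393 and Fto as its farthest at 1.003. Fto was nearest to Mettl3 (0.224), the other member that passed the test in neither genotype. Over 8742 genes at 1 TPM or more in each library, the genes nearest to Alkbh5 were Ttpal (0.137), Pcsk5 (0.140) and Rbm15b (0.145), and those nearest to Zc3h13 were Piga (0.279), Zc3h7a (0.298) and Map3k1 (0.306). Mettl3 was closest to Ap2a2 (0.093), Ubap2l (0.117) and Mettl9 (0.120), Mettl14 to Kbtbd2 (0.075), Tmem185b (0.078) and Atp6v1a (0.095), and Mettl16 to Pafah1b2 (0.084), Med17 (0.098) and Virma. Wtap was closest to Prrc2c (0.084), Kdm5a (0.096) and Dcp1a (0.097), Virma to Agps (0.073), Khdrbs1 (0.078) and Usp19 (0.078), and Cbll1 to Cflar (0.086), Ttc37 (0.089) and Ccdc66 (0.096). Among the genes nearest to Rbm15 were Pak2 (0.079) and Zup1 (0.110), and Fto was closest to Mrps2 (0.079), Tm7sf3 (0.083) and Zfp87 (0.092). Zc3h13 therefore had no gene as near to it as each other member had, in a measure that grows with the size of a gene's own change.

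**Figure D5:**
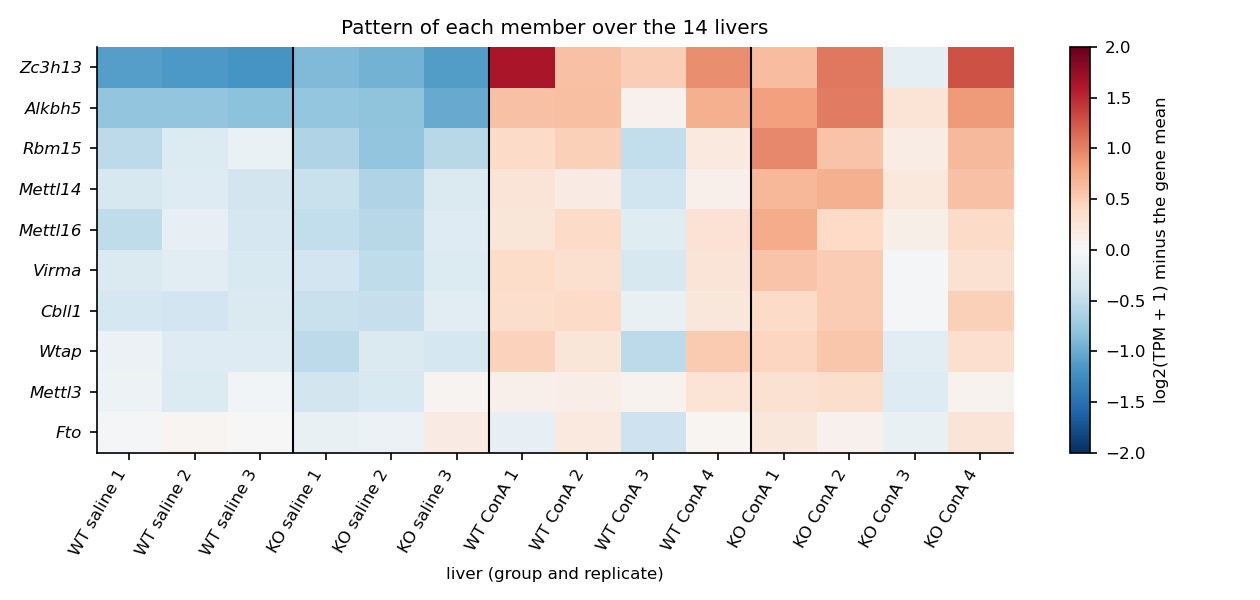
Log2(TPM + 1) minus the gene's mean over the 14 livers (colour, from -2 to 2) for the 10 members (rows) in each liver (columns, grouped with black lines). Zc3h13 and Alkbh5 run from below their mean in the 6 saline livers to above it in 7 and 8 ConA livers, and Fto stays within about 0.4 of its mean.

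Other genes of the same chemistry were described from lists. Their counts are those of the ConA comparisons; between genotypes, Idh1 was the 1 gene of these lists that limma called. Beside each count stand the shares over all genes tested, which were 17.1% called higher and 25.4% lower in WT liver and 33.9% and 30.7% in KO liver, with median log2 fold changes of -0.08 and 0.07. Of 10 partners of the writer complex and other m6A or m6Am enzymes, 2 were called higher and 1 lower in WT liver, and 4 higher and 3 lower in KO liver (median log2 fold change -0.03 and -0.07), counts near those shares. Rbm15b, the close relative of Rbm15 in the complex, rose from 1.49 to 1.75 TPM in WT saline to 4.35 to 5.62 TPM in WT ConA (log2 fold change 1.23, SE 0.18, adjusted p = 0.000956), and by 1.46 (SE 0.19) in KO liver. Nudt21, a subunit of a cleavage factor that associates with VIRMA, rose by 0.67 (SE 0.20, adjusted p = 0.0283) in WT and by 1.63 (SE 0.14, adjusted p = 3.18e-06) in KO liver. Mettl5, which places m6A on ribosomal RNA, went the other way: its log2 fold change was -0.96 (SE 0.17, adjusted p = 0.00243) in WT and -0.997 (SE 0.13, adjusted p = 5.43e-05) in KO liver.

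Of the 7 AlkB homologs other than Alkbh5, 3 were called higher and 2 lower in each genotype (median log2 fold change 0.43 in WT and -0.13 in KO liver) beside 17.1% and 25.4% (WT) and 33.9% and 30.7% (KO) of all genes. Alkbh2, a DNA repair demethylase, rose by 1.03 (SE 0.29) in WT and 1.53 (SE 0.16) in KO liver on the log2 scale, and Alkbh1 by 0.89 (SE 0.19) and 1.297 (SE 0.18). Alkbh7, a mitochondrial family member, had log2 fold changes of -0.87 (SE 0.19) and -1.64 (SE 0.19). Of the exonic bases of Alkbh2, 29.5% are shared with Usp30 on the opposite strand, so its reads may be mixed.

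Of 27 other RNA methyltransferases tested, 6 were called higher and 4 lower in WT liver, and 12 higher and 6 lower in KO liver, with medians of 0.08 and 0.36, beside all-gene shares of 17.1% and 25.4% (WT) and 33.9% and 30.7% (KO). After rescaling 7 were called higher and 2 lower in WT liver. Mettl8, which modifies mitochondrial transfer RNA, had log2 fold changes of -1.49 (SE 0.20) in WT and -1.58 (SE 0.19) in KO liver. The transfer RNA methyltransferase gene Mettl1 rose by 1.15 (SE 0.24, adjusted p = 0.00528) and Trmt61a by 1.05 (SE 0.19, adjusted p = 0.00241) in WT liver. In KO liver Mettl6 rose by 1.34 (SE 0.13), and Bud23, which methylates ribosomal RNA, had a log2 fold change of -1.34 (SE 0.12), with 12.9% of its exonic bases shared with Dnajc30.

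Transcripts of enzymes that make or use the methyl donor and 2-oxoglutarate were described in the same way; no metabolite was measured. Genes called lower made up 25.4% of all genes in WT liver and 30.7% in KO liver, and genes called higher 17.1% and 33.9%. Of 17 genes of the S-adenosylmethionine cycle tested, 2 were called higher and 8 lower in WT liver and 3 higher and 8 lower in KO liver, with median log2 fold changes of -0.585 and -0.24; rescaling left 5 called lower in WT liver. Gamt, which uses the methyl donor to make creatine, fell from 420 to 491 TPM in WT saline to 60.2 to 169 TPM in WT ConA (log2 fold change -2.15, SE 0.37) and had a log2 fold change of -3.15 (SE 0.19) in KO liver. Bhmt2 and Bhmt, which make methionine, had log2 fold changes of -1.98 (SE 0.20) and -1.81 (SE 0.43) in WT and -2.15 (SE 0.14) and -1.76 (SE 0.17) in KO liver, and 40.4% of 50-base stretches of the Bhmt transcript occur in no other gene. Of 14 nuclear-encoded enzymes of the citric acid cycle and 2-oxoglutarate metabolism, 0 were called higher and 10 lower in WT liver and 2 higher and 10 lower in KO liver, with medians of -0.94 and -0.61 against -0.08 and 0.07 over all genes; rescaling left 8 and 9 called lower. Idh1, which makes 2-oxoglutarate outside mitochondria, had log2 fold changes of -1.51 (SE 0.17) and -2.10 (SE 0.11). It was also lower in KO ConA than in WT ConA, with a log2 difference of -0.76 (SE 0.13, adjusted p = 0.0369 by limma, and 0.0332 after rescaling). D2hgdh, a mitochondrial enzyme that makes 2-oxoglutarate, had a log2 fold change of -1.298 (SE 0.18) in WT liver, and 76.7% of 50-base stretches of its transcript occur in no other gene. Sdhb, a succinate dehydrogenase subunit, had a log2 fold change of -1.61 (SE 0.12) in KO liver.

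Markers of some cell types moved with ConA as well. The summed TPM of 5 hepatocyte markers ran from 102000 to 129000 in the saline livers and from 51500 to 80600 in the ConA livers, which shows the labelled tissue in each library. The sum of 6 neutrophil markers ran from 4.64 to 9.77 TPM in saline livers and after ConA reached 313 to 551 TPM (WT) and 410 to 946 TPM (KO livers of the ConA group), and 5 of 6 were called higher in each genotype. Ly6g was the exception, with log2 fold changes of -0.83 in WT and -0.21 in KO liver, neither called. Most of the sum came from S100a8 (134 to 253 TPM in WT ConA) and S100a9 (156 to 265 TPM). The sum of 6 Kupffer cell markers ran from 25.3 to 105 TPM in saline livers and 4.74 to 28.4 TPM in ConA livers. Monocyte markers summed to 10.8 to 40.9 TPM in saline and 24.5 to 97.9 TPM in ConA livers, T cell markers to 0.95 to 2.94 and 1.76 to 5.72 TPM, and B cell markers to 0.41 to 3.66 and 0.80 to 4.11 TPM. Most T and B cell markers were too low to pass the filter. Of 6 T cell markers 0 were tested in WT and 1 in KO liver, and of 4 B cell markers 1 and 0. None of these was called. Sums for sinusoidal endothelial markers were 11.2 to 33.1 TPM in saline and 7.42 to 20.3 TPM in ConA livers, for stellate markers 14.6 to 91.7 and 20.4 to 95.9 TPM, and for cholangiocyte markers 3.97 to 15.3 and 8.03 to 21.0 TPM. The sinusoidal endothelial markers went different ways. Lyve1 was called higher (log2 fold change 1.47 in WT and 1.98 in KO liver). Clec4g (-1.83 and -2.52) and Kdr (-0.96 and -1.58) were called lower, and Stab2 was not called. Dcn made up most of the stellate sum (13.2 to 52.9 TPM in WT saline). Lrat was called lower in KO liver (-1.46) and was not tested in WT liver. No marker of these lists was at 0 in all libraries of a group. Bulk liver RNA cannot tell a change in the cells present from a change in the RNA per cell, and the part of the cell makeup in the rise of Alkbh5, Zc3h13 and the other members was not tested.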

How the data were processed

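Liver RNA of 14 mice was sequenced as 50-base single-end reads on a BGISEQ-500. The deposited values are TPM per gene, 1 table a mouse, made by the authors; the submitters' processing notes name Bowtie2, RSEM 1.3.1 and GRCm38.p6, while the study's methods name STAR and HTSeq. The annotation, gene lengths, strand setting and read numbers are not given in the sources used here. TPM are relative: a rise of abundant genes lowers the values of others, so libraries were also rescaled by their median ratio.

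Groups came from the sample labels. Differences of log2(TPM + 1) were tested two-sided with limma 3.58.1 (eBayes with trend, R 4.3.3) on the libraries of the groups compared, without a replicate block, for genes at TPM of 1 or more in at least the number of libraries of the smaller group. Calls had a Benjamini-Hochberg adjusted p under 0.05 over all genes tested. Fold changes on this scale understate those of low genes. The p-values measure the spread between the deposited mice. WT saline replicates 2 and 3 entered as their mean, since their robust SD was under 0.5 of the next smallest (0.147); without read counts the sampling noise itself could not be computed. The members and lists were chosen with earlier results of these data known. All members were named, up to 3 called genes with the largest change per list and ConA comparison, and the 3 genes nearest in pattern to each member. Some genes that this rule names are not reported here. On simulated data, 59% of 2-fold and 94% of 4-fold changes were called for WT ConA against WT saline (12 unchanged genes were called), 72% and 94% for KO ConA against KO saline (8 unchanged), 39% and 89% for KO saline against WT saline (9), 85% and 99% for KO ConA against WT ConA (11), and 56% and 85% for the interaction (5). The simulated libraries took their means from KO saline and their spread from KO ConA in all groups, without shifts between libraries. Only genes above 5 TPM in KO saline were changed. Mettl14, Mettl16, Virma, Rbm15 and Cbll1 lay below that level, so these shares do not apply to them. Alternatives were rescaling, a smaller pseudocount (0.1), no filter or one at TPM of 5, 1 fit of all 4 groups, a replicate block, the pair kept separate, a robust eBayes and each library left out. Positions and sequences were read with Python 3.11.15 and pandas 2.3.3 from RefSeq and GENCODE tables of GRCm38, in which 17604 of 17656 gene identifiers were found. Figures used matplotlib 3.10.9.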

Additional observations from a re-analysis of the deposited data

How the results depend on the processing

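In WT liver the count of members called, 2 as reported, was 5 after rescaling, 4 with all 4 groups in 1 fit, 4 with WT saline replicates 2 and 3 kept separate, and 2 to 8 with 1 library left out (8 without WT ConA replicate 3, 2 without each other library). Of the settings added after the data were seen, rescaling with the pair kept separate gave 9 and rescaling without WT ConA replicate 3 gave 8. Zc3h13 and Alkbh5 kept their call in all 17 alternatives run, with adjusted p of 4.31e-05 to 0.0127 and 1.46e-05 to 0.0189. In KO liver the count was 7 to 9, where the filter at TPM of 5 left Virma untested. Calls over all genes in KO liver were 5382 with that filter and 7099 as reported. They were 7814 without KO ConA replicate 3 and 7897 with rescaling too, the settings that gave 9 members. The 3 comparisons of genotype gave 0 in each alternative.

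With a replicate block the counts were 2, 8, 0, 0 and 0, on the fit with the pair separate (4 without the block in WT liver). Replicate numbers showed no steady pairing of the mice. The correlation of deviations between livers of the same number ran from -0.327 to 0.522 and was not above 0.1 for each pair in any comparison. It was 0.268, 0.135 and 0.047 in KO saline against WT saline. In KO ConA against WT ConA it was -0.108, 0.193, 0.522 and 0.158. This check cannot show that livers of the same number shared nothing, and a shared batch was not tested. Over all genes the block gave 2423 calls in KO saline against WT saline (2009 with the pair separate, 55 as reported), 140 in KO ConA against WT ConA (45 as reported) and 358 for the interaction (541 and 28). The interaction gave 576 without both replicates 3, 472 with rescaling and the pair separate, and 7 to 71 with 1 library left out. The count for KO ConA against WT ConA was 452 with all 4 groups in 1 fit, 3 without a filter and 5 to 52 with 1 library left out; rescaling moved the share called higher from 80% to 48%, and in KO saline against WT saline from 56.4% to 69%.

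Values that were past the threshold in neither setting changed sign as follows. Fto in WT ConA against WT saline became 0.006 after rescaling and 0.026 after rescaling without WT ConA replicate 3, and ran from -0.182 to 0.019 with 1 library left out. In KO saline against WT saline, rescaling gave 0.004 for Mettl16, 0.016 for Cbll1, 0.029 for Fto and 0.004 for Alkbh5; with the pair separate too, Cbll1 was 0.008 and Fto 0.014. With 1 library left out, Mettl3 ran from -0.203 to 0.011, Mettl16 from -0.186 to 0.008, Cbll1 from -0.116 to 0.011, Fto from -0.133 to 0.025 and Alkbh5 from -0.106 to 0.011. In KO ConA against WT ConA, Mettl3 was 0.071 without both replicates 3 and Wtap -0.120 after rescaling without WT ConA replicate 3; with 1 library left out, Mettl3 ran from -0.108 to 0.095, Wtap from -0.140 to 0.259 and Zc3h13 from -0.413 to 0.071. The interaction term of Mettl3 was -0.093 after rescaling, -0.099 with the pair separate too, -0.027 and -0.049 after rescaling without WT ConA or KO ConA replicate 3, and -0.043 to 0.172 with 1 library left out. The cause of these changes was not tested.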
